A study of Mus musculus with 5 samples.

Results

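A set of 296 genes had FPKM values in mouse macrophages that were at most 0.25 of the starting value after 4 h of lipopolysaccharide (LPS) and at least 0.5 of it after 24 h. FPKM, the unit of the table, relates a gene's fragments to the length of its transcript and to all mapped fragments of the library. The genes were chosen by these values: at least 10 FPKM at 0 h, at most 0.25 of that at 4 h and at least 0.5 of it at 24 h. Of 13339 genes listed, 5283 had at least 10 FPKM at 0 h, 722 of these (13.7%) met the 4 h limit, and 318 of those 722 (44%) also met the 24 h limit. These 318 are 6.02% of the 5283. Of the 318, 22 with symbols that start with Slc, Rab, Zfp, Trim, Usp, Vps, Snx, Arhgap, Arhgef, Dock or Atg, were set aside by name, which left 296. The values at 0, 4 and 24 h therefore describe how the set was made and support nothing, and only the 8 h and 12 h libraries lie outside its choice.

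The cells were macrophages grown from the bone marrow of 8-week-old C57BL/6 mice over 5 days in medium with M-CSF, the growth factor that makes marrow precursors into macrophages. They were taken at 0 h without LPS, and after 4, 8, 12 and 24 h with LPS at 100 ng/ml, a bacterial cell wall component. The sample titles call every library WT2, and 1 protocol field speaks of dendritic cells. Each time was 1 library. Whether a library came from 1 animal or a pool is not given in the sources used here. No test between times was possible. No unstimulated cells kept in culture for 4 to 24 h were analysed, so the effects of LPS and of hours in culture cannot be told apart, and every comparison with 0 h shares the same 0 h library.

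LPS is sensed at the macrophage surface by TLR4. The receptor starts kinase cascades and the transcription factor NF-kappaB, which switch on cytokine genes within hours. In the same hours many genes of the resting macrophage lose transcript, through less transcription, through decay of the messenger RNA, or both. Those that serve surveillance, endocytosis, lipid export and restraint of signalling are known among them. As the first wave of the response ends, macrophages restore part of their resting programme and can enter a state with raised clearance and repair functions. Total RNA at a single time does not separate transcription from decay.

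The promoters of 6 members among those with the largest log2(FPKM + 1) loss at 4 h are shown so that members with a deep loss can be compared in their upstream letters. They are the first promoter that RefSeq lists for each gene on GRCm38.p6, from 250 bases before to 50 bases after the annotated start, read along the gene's strand. Which start the cells used is not shown by FPKM per gene, and the Rhov window lies inside that gene's listed span (chromosome 2, 119269201 to 119278008). Capitals mark a GC box (GGGCGG, the letters bound by Sp1 family factors), a CCAAT box (CCAAT), an E-box (CACGTG, read by MYC, USF and MiT/TFE factors) or an ETS site (CCGGAAG), each on either strand.
Mknk2, chr10:80676244-80676543, minus strand: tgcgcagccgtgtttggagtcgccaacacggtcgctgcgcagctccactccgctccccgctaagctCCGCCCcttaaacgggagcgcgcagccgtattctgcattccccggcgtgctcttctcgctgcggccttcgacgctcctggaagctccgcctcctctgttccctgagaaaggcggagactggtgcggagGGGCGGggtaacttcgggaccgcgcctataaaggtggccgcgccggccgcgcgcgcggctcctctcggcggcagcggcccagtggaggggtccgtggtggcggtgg
Fblim1, chr4:141606003-141606302, minus strand: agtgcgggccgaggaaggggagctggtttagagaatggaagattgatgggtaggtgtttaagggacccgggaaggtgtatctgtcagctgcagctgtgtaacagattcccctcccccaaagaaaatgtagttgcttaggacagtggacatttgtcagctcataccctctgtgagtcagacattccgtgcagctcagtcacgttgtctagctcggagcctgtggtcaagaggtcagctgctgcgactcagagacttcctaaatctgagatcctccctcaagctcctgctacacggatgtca
Sash3, chrX:48146186-48146485, plus strand: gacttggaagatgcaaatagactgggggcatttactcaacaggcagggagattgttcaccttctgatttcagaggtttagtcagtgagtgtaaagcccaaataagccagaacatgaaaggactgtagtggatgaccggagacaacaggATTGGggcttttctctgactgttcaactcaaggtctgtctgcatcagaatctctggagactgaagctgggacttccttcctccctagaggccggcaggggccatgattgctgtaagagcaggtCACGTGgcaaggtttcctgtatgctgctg
Tmem104, chr11:115187237-115187536, plus strand: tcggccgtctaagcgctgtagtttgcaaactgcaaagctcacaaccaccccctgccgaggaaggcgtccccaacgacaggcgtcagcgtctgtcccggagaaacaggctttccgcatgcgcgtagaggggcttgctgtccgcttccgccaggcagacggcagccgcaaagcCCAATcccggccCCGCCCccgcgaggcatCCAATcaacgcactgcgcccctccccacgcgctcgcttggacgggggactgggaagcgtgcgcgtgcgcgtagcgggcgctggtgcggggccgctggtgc
Chst12, chr5:140505359-140505658, plus strand: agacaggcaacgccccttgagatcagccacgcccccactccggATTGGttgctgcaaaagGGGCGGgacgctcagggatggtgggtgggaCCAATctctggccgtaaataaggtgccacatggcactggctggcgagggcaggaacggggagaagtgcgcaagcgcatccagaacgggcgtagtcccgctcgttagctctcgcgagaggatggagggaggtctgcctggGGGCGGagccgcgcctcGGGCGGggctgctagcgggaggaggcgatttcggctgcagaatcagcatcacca
Rhov, chr2:119271177-119271476, minus strand: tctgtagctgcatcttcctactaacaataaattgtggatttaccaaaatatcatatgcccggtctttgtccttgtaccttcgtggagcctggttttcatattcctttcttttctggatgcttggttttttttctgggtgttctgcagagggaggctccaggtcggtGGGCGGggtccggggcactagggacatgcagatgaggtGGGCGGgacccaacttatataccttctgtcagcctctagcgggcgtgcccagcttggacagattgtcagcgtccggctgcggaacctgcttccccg
Mknk2 and Rhov hold 2 GC boxes each and none of the other letters. Chst12 holds 3 GC boxes and 2 CCAAT boxes, and Tmem104 holds 1 GC box and 2 CCAAT boxes. Sash3 has no GC box but 1 CCAAT box and the single E-box of these 6 windows, and in the Fblim1 window none of the 4 sets of letters occurs. None of the 4 sets of letters was in all 6 windows.

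Among the 254 members with a promoter in the RefSeq table, 71.7% held a GC box, against 67.0% of 312 genes lost and not regained, 67.4% of 3739 genes not lost and 35.9% of all 27025 RefSeq promoters. A CCAAT box was in 41.7% of members' windows, 39.7% of those lost and not regained, 38.3% of those not lost and 37.9% of all. The E-box was in 10.2% of members' windows, against 16.3%, 11.4% and 7.24% in the same 3 comparison sets. The ETS site was in 20.1%, against 15.1%, 23.9% and 9.12%. The kappaB consensus, searched on both strands, was in 10.2%, against 9.94%, 9.68% and 8.18%. Members' promoters had a median GC content of 61.8% and a median of 22 CpG dinucleotides, and those of genes not lost 61.3% and 22. For the GC box and the ETS site, most of the distance from the average of all RefSeq promoters was shared with genes not lost, while for the CCAAT box all sets lay within a few percentage points. A match of letters is a description and not a bound site.

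At 8 h, a time not used to choose the set, 32 of the 296 members (10.8%) had reached 0.5 of their 0 h value, against a background of 63.8% of all genes of at least 10 FPKM at 0 h. At 12 h the count was 134 of 296 (45.3%), against 69.7%. Of the 384 genes lost at 4 h and not regained by 24 h, with the same name prefixes left out, 2 reached 0.5 at 8 h and 9 at 12 h (2.34%). The members' median ratio to 0 h was 0.187, 0.313, 0.483 and 0.682 at 4, 8, 12 and 24 h. For the genes lost and not regained it was 0.151, 0.160, 0.228 and 0.338, and for all 5283 genes 0.536, 0.646, 0.688 and 0.809. The 2 lost sets lay close together at 4 h and had parted by 8 h. Since the sets were split by their 24 h values and neighbouring times resemble each other, no test was attached to this.

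**Figure D1:**
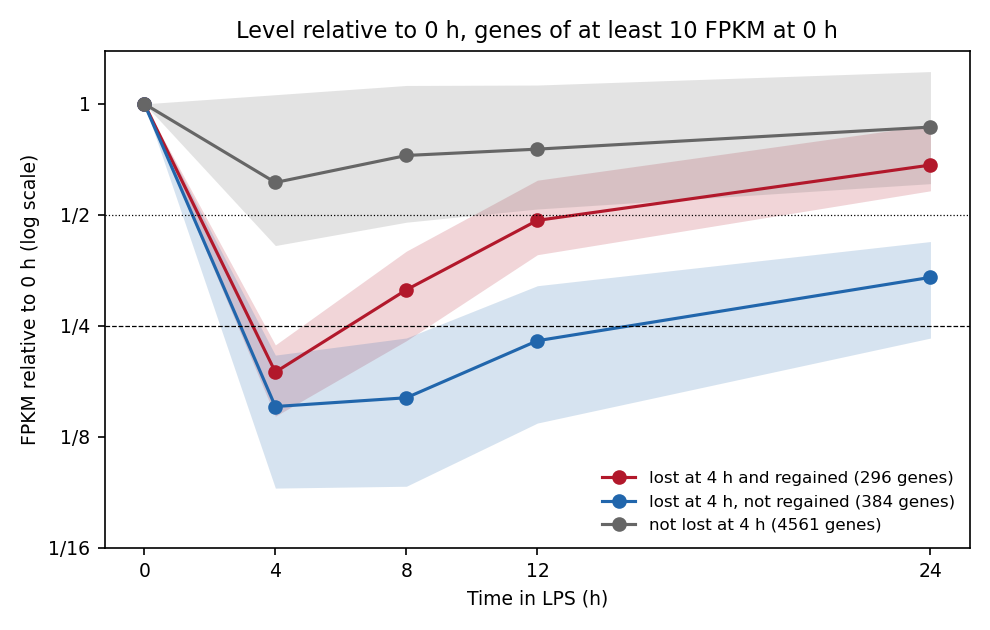
FPKM relative to 0 h on a log scale against hours in LPS, for the 296 members, the 384 genes lost and not regained and the 4561 genes not lost at 4 h; points are medians over genes, bands run from the 25th to the 75th percentile, and the dashed and dotted lines mark 0.25 and 0.5. The members' median was 0.187 at 4 h and 0.313 at 8 h, while that of the genes lost and not regained was 0.151 and 0.160.

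The course of return differed among members. Of the 296, 228 (77.0%) were higher at each later time than at the one before from 4 h to 24 h, against 155 of 384 (40.4%) genes lost and not regained and 1478 of 5283 (28.0%) of all. The choice of members fixes their 24 h value above their 4 h value and keeps the genes not regained lower at 24 h, so this difference is in part built in. At 8 h 267 members (90.2%) were above and 29 below their own 4 h value. Of genes lost and not regained 226 of 384 (58.9%) were above it, and of all genes 3344 of 5283 (63.3%). The choice of a low 4 h and a higher 24 h value builds in part of this difference as well. By the 8 h library the median member had made 25.2% of its 4 h to 24 h difference, and by 12 h 57.9%. Of the members, 31 reached 0.5 of the 0 h value at 8 h and held it at 12 h. Another 1 reached it at 8 h but was below it at 12 h, 103 first reached it at 12 h and 161 first at 24 h. In 28 members (9.46%) the 12 h value was above the 24 h value, against 1776 of 5283 (33.6%) of all. The 24 h limit of the rule bears on this count too. The 24 h value was at or above the 0 h value in 47 members (15.9%), against 33.9% of all genes of at least 10 FPKM at 0 h, so that for the other members "regained" means a return in part.

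**Figure D2:**
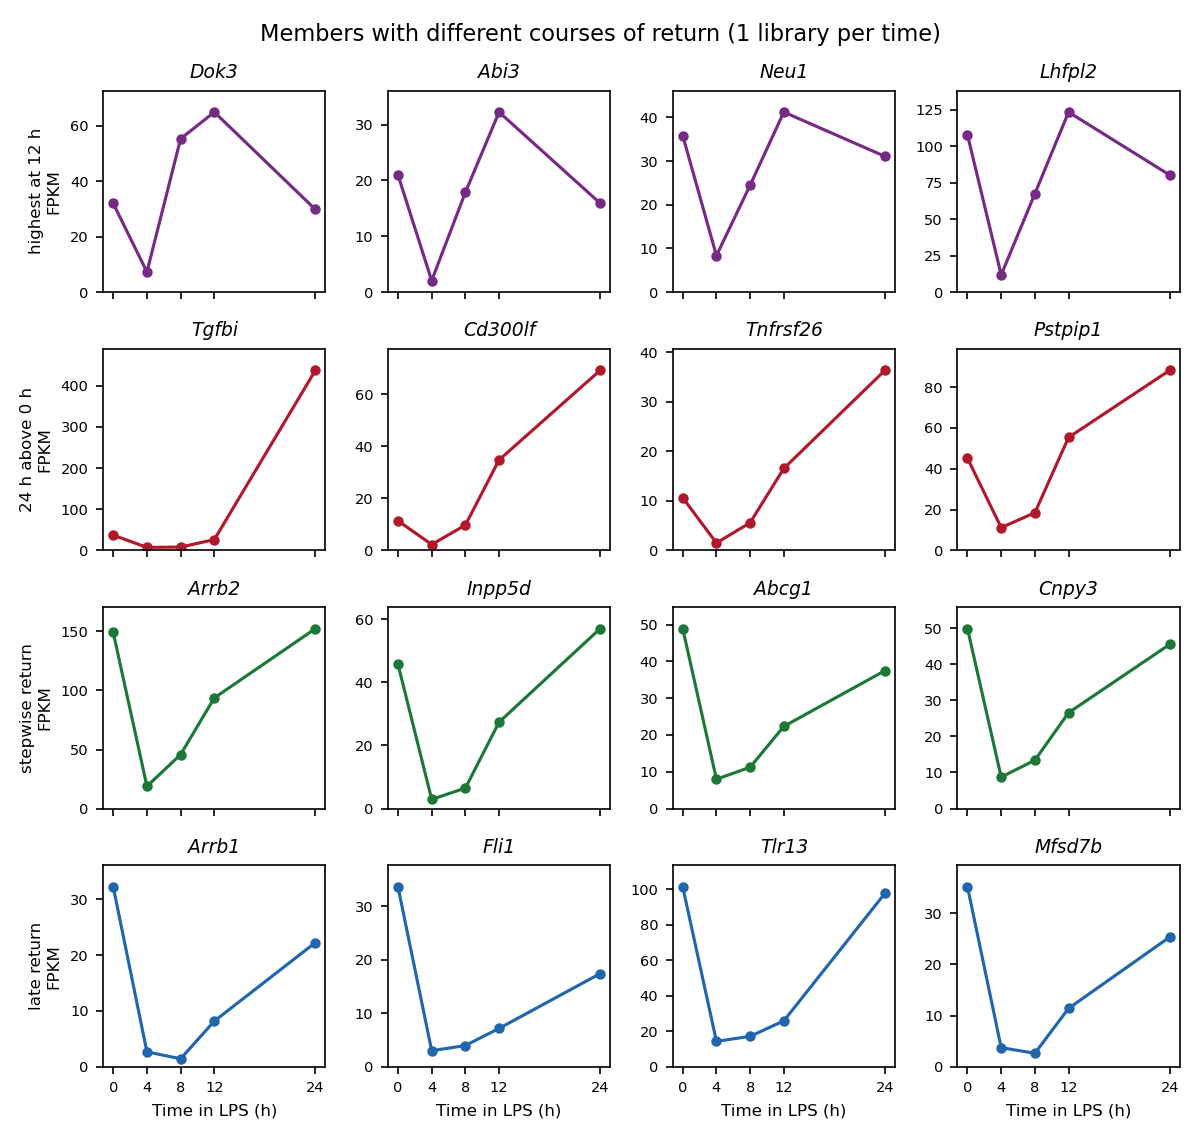
FPKM at 0, 4, 8, 12 and 24 h for 16 members, each point 1 library, with a separate linear axis from 0 in each panel. The top row peaks at 12 h, the second row ends above its 0 h value, the third climbs in steps from 4 h, and in the bottom row 12 h values are still below 0.5 of the 0 h values.

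The share of members depended on how the libraries were scaled. The median of all 9795 genes with a mean of at least 1 FPKM was itself lower than at 0 h, by a log2(FPKM + 1) difference of -0.70, -0.49, -0.35 and -0.11 at 4, 8, 12 and 24 h. With each library centred on its median gene, 92 of the 296 were still at most 0.25 of 0 h at 4 h, and the members' median 4 h ratio was 0.303. On that scale 106 members were at 0.5 or above at 8 h and 221 at 12 h. Centring shifts all genes of a library alike, and no count over all genes is given for it. The centred median ratios at 8 h and 12 h were 0.439 and 0.618 for members. They were 0.224 and 0.291 for genes lost and not regained, and 0.905 and 0.880 for all genes of at least 10 FPKM at 0 h. With the trend of difference on transcript length removed, the rule gave 105 genes, of which 82 were among the 296. So 4-fold loss holds for all 296 on the deposited scale only, and 65 members met the rule on the deposited scale and on all 3 other scales tried. These 65, named where they appear below as scale-robust, had median ratios of 0.100, 0.237, 0.477 and 0.710 at 4, 8, 12 and 24 h on the deposited scale. The 65 were picked by the 0, 4 and 24 h limits on each scale, so their 4 h and 24 h medians restate that choice in part. The label scale-robust tells only that a gene met the rule on each scale. Of the 65, 6 had reached 0.5 of 0 h at 8 h and 31 at 12 h, against 32 and 134 of all 296 members.

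All 296 identifiers are in the RefSeq table as protein-coding genes, spread over 20 chromosomes with at most 34 on 1 chromosome. No member was listed at 0 in any library. For 94 members the exons overlap those of another gene, 28 of them on the same strand and 76 on the other. Overlap on the other strand was found for 25.8% of members. It was found for 35.2% of genes lost and not regained and 31.8% of all genes of at least 10 FPKM at 0 h. No share over all genes is given for the same strand. The counting is not stated to use strand, so values of overlapping genes are uncertain, as are those of genes with near-identical copies. Among the members named here this touches Ftl1, Arrb2, Gpsm3, Akt1s1, Hdac5, Ddit3, Cebpg, Crot and Mrpl51 on the same strand. On the other strand it also touches Nt5c, Sephs2, Mfsd7b, Bhlhe40, Mef2d, Abi3, B4galt7, Pik3r2, Phf1, Casp9, Gpank1, Xpa, Il6ra, Tnfrsf26, Hist1h2ao, Sdhaf1 and Coa6. The members' median level was 18.8, 3.30, 5.98, 9.62 and 13.9 FPKM at 0, 4, 8, 12 and 24 h. Together they made up 5.59%, 1.47%, 1.53%, 2.30% and 3.62% of all listed FPKM at 0, 4, 8, 12 and 24 h, most of it from Ftl1. Without Ftl1 the shares were 1.81%, 0.395%, 0.670%, 1.11% and 1.59%. In RNA from a whole culture, fewer cells of a type and less RNA per cell cannot be told apart.

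Ftl1, the light chain of the iron store ferritin (gene 14325; chromosome 7, 45457944 to 45459886, GRCm38), was by far the most abundant member with 19595, 4679, 4092, 5685 and 9873 FPKM at 0, 4, 8, 12 and 24 h. Its lowest value was at 8 h and its 24 h value sat just inside the limit of 0.5. Ftl1 has many near-identical copies in the mouse genome, so its level is uncertain.

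Immune receptors and their adaptors made up 20 members, of which 3 reached 0.5 of 0 h at 8 h, 10 at 12 h, and 5 were at or above 0 h at 24 h. Over all 296 members these shares were 10.8%, 45.3% and 15.9%. Over all genes of at least 10 FPKM at 0 h they were 63.8%, 69.7% and 33.9%. The median ratios of the 20 members were 0.165, 0.248, 0.498 and 0.765 at 4, 8, 12 and 24 h. Sirpa, the receptor for CD47 that restrains phagocytosis (gene 19261; chromosome 2, 129591042 to 129632228, GRCm38), stood at 839, 197, 321, 379 and 499 FPKM at 0, 4, 8, 12 and 24 h. Cd84, a self-binding receptor of the SLAM family, stood at 225, 51.1, 50.97, 70.4 and 120.2 FPKM at 0, 4, 8, 12 and 24 h. Tlr13, the endosomal sensor of bacterial ribosomal RNA (gene 279572; chromosome X, 106143275 to 106160493, GRCm38), stood at 101, 14.4, 17.2, 25.9 and 97.7 FPKM at 0, 4, 8, 12 and 24 h. Sirpa climbed at every step, whereas Cd84 and Tlr13 were still near their 4 h values at 8 h, and most of Tlr13's return fell after 12 h. Tlr13 is scale-robust. Cnpy3, the chaperone that folds Toll-like receptors, stood at 49.9, 8.71, 13.4, 26.6 and 45.5 FPKM at 0, 4, 8, 12 and 24 h. Tgfbr1, the type I receptor for TGF-beta, stood at 40.6, 6.95, 8.91, 13.6 and 20.9 FPKM at 0, 4, 8, 12 and 24 h. Il6ra, the ligand-binding chain of the IL-6 receptor, stood at 12.0, 1.86, 3.97, 9.47 and 14.2 FPKM at 0, 4, 8, 12 and 24 h. Of these receptors Il6ra alone ended above 0 h, with a 24 h over 0 h ratio of 1.18.

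Receptors that overshot were few. Cd300lf, an inhibitory receptor for lipids that belongs to a cluster of similar genes, stood at 11.4, 2.22, 9.69, 34.8 and 69.2 FPKM at 0, 4, 8, 12 and 24 h, so that 24 h was 6.09-fold above 0 h. Tnfrsf26, a decoy receptor of the TNF receptor superfamily, stood at 10.6, 1.48, 5.57, 16.5 and 36.3 FPKM at 0, 4, 8, 12 and 24 h, 3.43-fold above 0 h at 24 h. Both were already above 0 h at 12 h, and Tnfrsf26 is scale-robust. The adaptors beneath such receptors took diverse courses. Dok3, which dampens immune receptor and TLR signals, stood at 31.9, 7.23, 55.2, 64.9 and 29.8 FPKM at 0, 4, 8, 12 and 24 h. It was the one member above its 0 h value at 8 h, with a ratio of 1.73. Dok2, of the same family, stood at 22.1, 3.91, 3.65, 7.07 and 13.1 FPKM at 0, 4, 8, 12 and 24 h. The pair thus differed in order, Dok3 highest at 12 h and Dok2 lowest at 8 h.

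Pstpip1, an adaptor that links the cytoskeleton to the pyrin inflammasome, stood at 45.1, 11.1, 18.4, 55.4 and 88.2 FPKM at 0, 4, 8, 12 and 24 h. Its 12 h and 24 h values were above 0 h. Inpp5d, the lipid phosphatase SHIP1 that opposes PI3 kinase (gene 16331; chromosome 1, 87620312 to 87720510, GRCm38), stood at 45.8, 2.91, 6.49, 27.4 and 57.03 FPKM at 0, 4, 8, 12 and 24 h. Pik3r2, a regulatory subunit of PI3 kinase, stood at 17.1, 1.53, 2.63, 7.91 and 8.97 FPKM at 0, 4, 8, 12 and 24 h. At 8 h the ratio to 0 h was 0.142 for Inpp5d and 0.154 for Pik3r2, and Inpp5d ended above 0 h while Pik3r2 ended just above 0.5 of it. Tec, a tyrosine kinase under immune receptors, stood at 31.1, 3.32, 3.79, 11.8 and 24.7 FPKM at 0, 4, 8, 12 and 24 h. Sash3, a scaffold best known from lymphocytes, stood at 43.7, 2.11, 9.32, 20.1 and 22.3 FPKM at 0, 4, 8, 12 and 24 h. Inpp5d, Pik3r2, Tec and Sash3 are all scale-robust, and each had its 4 h value at about 0.1 of 0 h or less.

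Arrestins and regulators of G proteins and small GTPases were 14 members, with median ratios of 0.170, 0.316, 0.569 and 0.675 at 4, 8, 12 and 24 h. Arrb2, which encodes beta-arrestin 2, the adaptor that silences and internalises G protein-coupled receptors (gene 216869; chromosome 11, 70432485 to 70440828, GRCm38), stood at 149, 18.9, 45.8, 93.7 and 152 FPKM at 0, 4, 8, 12 and 24 h. Arrb1, for the related beta-arrestin 1 (gene 109689; chromosome 7, 99535147 to 99606772, GRCm38), stood at 32.2, 2.68, 1.45, 8.19 and 22.3 FPKM at 0, 4, 8, 12 and 24 h. Arrb2 was back at its 0 h level at 24 h, whereas Arrb1 was lowest at 8 h and had the lowest 8 h over 0 h ratio of all members, 0.045. Grk6, a kinase that marks active receptors for arrestin, stood at 11.4, 2.40, 5.95, 8.72 and 7.50 FPKM at 0, 4, 8, 12 and 24 h. Rgs19, which speeds G protein shut-off, stood at 52.1, 11.1, 23.8, 29.6 and 38.8 FPKM at 0, 4, 8, 12 and 24 h. Gpsm3, a G protein modulator of leukocytes, stood at 146, 23.9, 47.7, 83.4 and 77.1 FPKM at 0, 4, 8, 12 and 24 h. Grk6 and Gpsm3 peaked at 12 h among the stimulated libraries, and Rgs19 was higher at each step.

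Rasa3, which turns off Ras and Rap, stood at 50.3, 9.52, 9.10, 13.9 and 26.2 FPKM at 0, 4, 8, 12 and 24 h. Rhov, an atypical small GTPase, stood at 22.5, 0.85, 6.64, 17.5 and 19.8 FPKM at 0, 4, 8, 12 and 24 h. Tbc1d10a, a GTPase activator for Rab proteins, stood at 13.98, 2.46, 4.64, 6.22 and 7.58 FPKM at 0, 4, 8, 12 and 24 h. Rhov's 4 h ratio of 0.038 was among the lowest of the set, and it had returned to above 0.5 of 0 h by 12 h, while Rasa3 had not. Rhov and Arrb1 are scale-robust.

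Protein and lipid kinases were 9 members, none of which reached 0.5 of 0 h at 8 h and 6 of which did at 12 h. Over all 296 members the shares were 10.8% and 45.3%. Over all genes of at least 10 FPKM at 0 h they were 63.8% and 69.7%. Counts this small single out no group. Mknk2, the kinase that MAP kinases use to phosphorylate the cap-binding translation factor (gene 17347; chromosome 10, 80665318 to 80676293, GRCm38), stood at 67.8, 2.61, 7.64, 29.7 and 39.5 FPKM at 0, 4, 8, 12 and 24 h. Mast3, a microtubule-associated kinase, stood at 20.7, 0.85, 5.20, 15.1 and 12.6 FPKM at 0, 4, 8, 12 and 24 h. Map3k1, an upstream kinase of the JNK pathway, stood at 17.8, 2.81, 4.41, 9.58 and 10.2 FPKM at 0, 4, 8, 12 and 24 h. Map2k5, the kinase that activates ERK5, stood at 18.9, 3.57, 6.02, 7.18 and 10.3 FPKM at 0, 4, 8, 12 and 24 h. The group's median ratios were 0.588 at 12 h and 0.605 at 24 h. That near-level median does not describe each gene, since from 12 h to 24 h Mknk2, Map3k1 and Map2k5 rose and Mast3 fell. Mknk2 and Mast3 are scale-robust.

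Transcription factors were 15 members, with median ratios of 0.183, 0.321, 0.477 and 0.676. Fli1, an ETS factor of blood cells (gene 14247; chromosome 9, 32422204 to 32543432, GRCm38), stood at 33.6, 3.01, 3.98, 7.18 and 17.4 FPKM at 0, 4, 8, 12 and 24 h. Rxra, the partner of nuclear receptors for sterols, fatty acids and retinoids (gene 20181; chromosome 2, 27676445 to 27763319, GRCm38), stood at 31.3, 2.26, 6.39, 14.9 and 20.8 FPKM at 0, 4, 8, 12 and 24 h. Mef2d, a MADS-box factor, stood at 25.1, 3.14, 8.78, 16.8 and 19.4 FPKM at 0, 4, 8, 12 and 24 h. Fli1 was one of the slowest to return, and Rxra and Mef2d climbed at every step. Bhlhe40, a repressor that also feeds into the circadian clock, stood at 25.3, 3.60, 4.67, 13.5 and 13.3 FPKM at 0, 4, 8, 12 and 24 h. Mnt, which competes with MYC for its partner MAX, stood at 19.3, 0.71, 3.99, 8.38 and 11.2 FPKM at 0, 4, 8, 12 and 24 h. Mnt had the lowest 4 h ratio of the set, 0.037. These 5 genes are scale-robust.

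Tcf3, the E-protein E2A, stood at 10.1, 1.93, 3.42, 4.72 and 7.12 FPKM at 0, 4, 8, 12 and 24 h. Cebpg, a C/EBP protein without an activation domain, stood at 17.4, 4.18, 5.60, 7.17 and 11.8 FPKM at 0, 4, 8, 12 and 24 h. Ddit3, the stress factor CHOP, stood at 24.1, 4.73, 17.6, 33.95 and 52.6 FPKM at 0, 4, 8, 12 and 24 h. Tcf3 and Cebpg ended below their 0 h values, and Ddit3 passed its 0 h value at 12 h and was 2.18-fold above it at 24 h. The 7 genes of translation and the stress response, which include Cebpg and Ddit3, had median ratios of 0.240, 0.367, 0.678 and 0.863. Ddit3 and Cebpg overlap other genes on both strands, so their values are uncertain. Ppard, the fatty acid receptor PPAR delta, was named after its values were seen and stood at 11.5, 2.79, 11.4, 22.3 and 17.2 FPKM at 0, 4, 8, 12 and 24 h. Its 12 h and 24 h values were above 0 h.

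Chromatin and elongation factors were 14 members, with median ratios of 0.170, 0.341, 0.612 and 0.758. Dnmt1, the maintenance DNA methyltransferase, stood at 14.3, 1.96, 3.94, 9.90 and 18.9 FPKM at 0, 4, 8, 12 and 24 h. Hdac5, a class II histone deacetylase, stood at 32.3, 2.24, 3.57, 12.5 and 16.3 FPKM at 0, 4, 8, 12 and 24 h. Phf1, a Polycomb accessory protein, stood at 14.1, 2.17, 5.33, 10.5 and 12.1 FPKM at 0, 4, 8, 12 and 24 h. Dnmt1 ended above 0 h and Hdac5 just above 0.5 of it. Dnmt1 alone of these 3 is scale-robust.

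Proteins of the lysosome, endosome and autophagy were 20 members, of which 11 reached 0.5 of 0 h at 12 h. Over all 296 members this share was 45.3%, and over all genes of at least 10 FPKM at 0 h 69.7%. Flcn, folliculin, which controls MiT/TFE factors from the lysosome surface (gene 216805; chromosome 11, 59791408 to 59810039, GRCm38), stood at 32.4, 3.57, 12.4, 14.8 and 18.4 FPKM at 0, 4, 8, 12 and 24 h. Fnip2, its binding partner, stood at 71.3, 16.9, 43.2, 66.5 and 72.1 FPKM at 0, 4, 8, 12 and 24 h. Neu1, the lysosomal sialidase, stood at 35.8, 8.33, 24.5, 41.2 and 31.1 FPKM at 0, 4, 8, 12 and 24 h. Fnip2 was back near its 0 h value at 12 h, whereas Flcn was still below 0.5 of it, and Neu1 passed its 0 h value at 12 h and was lower again at 24 h. Nprl2, a subunit of the GATOR complex that holds mTORC1 back, stood at 10.8, 2.69, 4.45, 6.02 and 7.90 FPKM at 0, 4, 8, 12 and 24 h. Akt1s1, the mTORC1 inhibitor PRAS40, stood at 32.6, 6.34, 14.7, 17.3 and 19.7 FPKM at 0, 4, 8, 12 and 24 h. Both climbed at every step and ended below 0 h. Flcn is scale-robust.

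Lipid and sterol handling was the role of 14 members, with median ratios of 0.214, 0.316, 0.538 and 0.802. At 12 h 10 of them reached 0.5 of 0 h, against 45.3% of all 296 members. Among all genes of at least 10 FPKM at 0 h the share was 69.7%, and a count of so few singles out no group. Abcg1, which exports cholesterol to lipoproteins, stood at 48.9, 7.98, 11.2, 22.3 and 37.5 FPKM at 0, 4, 8, 12 and 24 h. Soat1, which esterifies cholesterol for storage, stood at 108, 17.3, 35.4, 54.6 and 68.1 FPKM at 0, 4, 8, 12 and 24 h. At 8 h the ratio to 0 h was 0.230 for Abcg1 and 0.327 for Soat1. Crot, a peroxisomal acyltransferase, stood at 10.7, 2.39, 2.29, 3.41 and 7.58 FPKM at 0, 4, 8, 12 and 24 h. Por, the reductase that feeds electrons to cytochrome P450 enzymes, stood at 166, 41.3, 69.03, 164 and 254 FPKM at 0, 4, 8, 12 and 24 h. Por was at its 0 h level at 12 h and 1.53-fold above it at 24 h, and Crot was the last of these to return.

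Among 10 redox and iron genes the median ratios were 0.229, 0.285, 0.417 and 0.755. Msrb1, a selenoprotein that repairs oxidised methionine, stood at 269, 61.2, 180.0, 332 and 259 FPKM at 0, 4, 8, 12 and 24 h. Sephs2, which makes the selenium donor for selenoproteins, stood at 41.4, 7.78, 19.4, 38.8 and 27.8 FPKM at 0, 4, 8, 12 and 24 h. Both peaked at 12 h among the stimulated libraries, with Msrb1 above its 0 h value there. Osgin1, an oxidative stress response gene, stood at 13.9, 1.01, 9.36, 17.4 and 24.9 FPKM at 0, 4, 8, 12 and 24 h. Akr1b8, an aldo-keto reductase with close paralogs, stood at 27.7, 6.50, 3.21, 7.51 and 33.0 FPKM at 0, 4, 8, 12 and 24 h. Mfsd7b, the haem and choline transporter that RefSeq names Flvcr1 (gene 226844; chromosome 1, 191005832 to 191026190, GRCm38), stood at 35.1, 3.74, 2.65, 11.4 and 25.3 FPKM at 0, 4, 8, 12 and 24 h. Osgin1 was 1.80-fold above 0 h at 24 h, whereas Akr1b8 and Mfsd7b were lower at 8 h than at 4 h. Osgin1 and Mfsd7b are scale-robust.

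The 7 genes of mitochondrial ribosome proteins had the lowest 24 h median of the 15 role groups, with median ratios of 0.186, 0.329, 0.451 and 0.563. At 12 h 2 of them were at 0.5 of 0 h or above, and at 24 h none was back at its 0 h level. Over all 296 members these shares were 45.3% and 15.9%. The 7 genes are Mrpl2, Mrpl34, Mrpl42, Mrpl51, Mrps16, Mrps35 and Mrps36, with 24 h ratios between 0.525 for Mrpl2 and 0.782 for Mrps36. The 24 h ratio chose the members and is cut at 0.5, which left out Mrpl28 at 0.499. The rank of the 24 h median thus describes the chosen genes and marks no trait of the group. The 15 other mitochondrial genes, among them the respiratory chain assembly factors Sdhaf1, Uqcc2 and Coa6, had median ratios of 0.195, 0.296, 0.414 and 0.675. None of these 22 genes reached 0.5 of 0 h at 8 h, against 32 (10.8%) of all 296 members, and a count of 0 of so few singles out no group. None of the mitochondrial ribosome genes is scale-robust, and of the other mitochondrial genes Sdhaf1 is.

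Cytoskeleton and cell movement genes were 11 members, with median ratios of 0.205, 0.356, 0.451 and 0.759. Myo1f, a myosin of leukocytes, stood at 266, 54.97, 42.9, 98.7 and 176 FPKM at 0, 4, 8, 12 and 24 h. Abi3, an adaptor of the actin-branching WAVE machinery, stood at 20.98, 2.04, 17.9, 32.3 and 15.9 FPKM at 0, 4, 8, 12 and 24 h. Fblim1, which binds filamin at adhesions, stood at 45.7, 2.11, 6.67, 15.2 and 29.5 FPKM at 0, 4, 8, 12 and 24 h. Hip1, which links clathrin to actin, stood at 24.01, 1.63, 2.17, 6.20 and 13.2 FPKM at 0, 4, 8, 12 and 24 h. Abi3 was at 0.851 of 0 h at 8 h and above 0 h at 12 h, whereas Myo1f was lower at 8 h than at 4 h and Hip1 was at 0.090 of 0 h at 8 h. Dynlt1b, a dynein light chain with near-identical copies, stood at 60.5, 12.4, 54.9, 47.3 and 81.98 FPKM at 0, 4, 8, 12 and 24 h, which is uncertain for that reason. Abi3 and Fblim1 are scale-robust.

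Of 3 secreted proteins, Tgfbi, a matrix protein named for its induction by TGF-beta (gene 21810; chromosome 13, 56609586 to 56639359, GRCm38), stood at 36.7, 7.04, 7.86, 25.9 and 437 FPKM at 0, 4, 8, 12 and 24 h. Its 24 h value was 11.9-fold above 0 h, the highest 24 h ratio of the set, although its 12 h ratio was 0.707. Tgfbr1, the receptor for TGF-beta, was at 0.515 of its 0 h level at 24 h. Vegfa, the vessel growth factor, was named after its values were seen and stood at 20.3, 2.27, 4.79, 17.4 and 19.2 FPKM at 0, 4, 8, 12 and 24 h. It is scale-robust.

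The 12 genes of DNA replication, repair and division had median ratios of 0.198, 0.319, 0.522 and 0.728. Among them Xrcc1, the scaffold of single-strand break repair, stood at 21.2, 4.00, 6.14, 11.1 and 11.4 FPKM at 0, 4, 8, 12 and 24 h. Xpa, a damage sensor of nucleotide excision repair, stood at 12.1, 1.87, 4.61, 4.25 and 8.09 FPKM at 0, 4, 8, 12 and 24 h. Outside these 12, B9d2, a protein of the ciliary base, stood at 10.3, 2.49, 5.60, 7.68 and 6.89 FPKM at 0, 4, 8, 12 and 24 h. Hist1h2ao, a histone H2A gene with near-identical copies, stood at 10.03, 1.06, 1.04, 1.59 and 5.25 FPKM at 0, 4, 8, 12 and 24 h, and its value is uncertain. Hist1h2ao had the lowest 0 h level of the set and stayed at its 4 h value through 8 h.

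**Figure D3:**
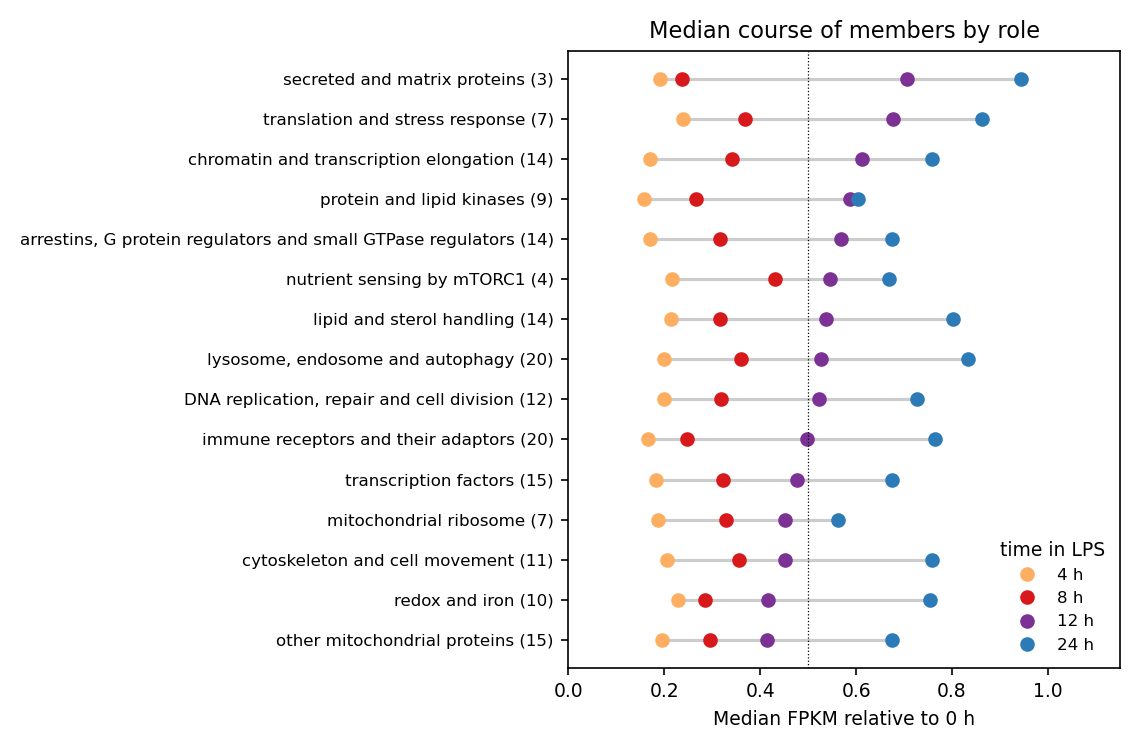
Median FPKM relative to 0 h at 4, 8, 12 and 24 h for members grouped by role, with the number of members in brackets; rows are ordered by the 12 h median, and the dotted line marks 0.5. The 12 h median was highest for secreted and matrix proteins (0.707) and for translation and stress genes (0.678). It was lowest for other mitochondrial genes (0.414) and for redox and iron genes (0.417). The cytoskeleton and mitochondrial ribosome groups were both at 0.451. The 4 h medians of all 15 groups lay between 0.158 and 0.240.

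Glycan enzymes were also among the members. B4galt1, a galactosyltransferase, stood at 30.8, 7.25, 11.9, 23.2 and 41.8 FPKM at 0, 4, 8, 12 and 24 h. B4galt7, a galactosyltransferase that helps build the linker of glycosaminoglycans, stood at 20.4, 4.69, 8.01, 9.97 and 14.7 FPKM at 0, 4, 8, 12 and 24 h. Chst12, which sulfates chondroitin, stood at 37.8, 2.04, 6.89, 18.7 and 28.04 FPKM at 0, 4, 8, 12 and 24 h. B4galt1 was 1.36-fold above 0 h at 24 h. Cmas, which activates sialic acid, stood at 44.8, 8.05, 11.2, 19.7 and 22.5 FPKM at 0, 4, 8, 12 and 24 h. Pgap1, which remodels GPI anchors, stood at 14.4, 3.15, 3.19, 6.04 and 11.1 FPKM at 0, 4, 8, 12 and 24 h. Cmas was the member nearest the 24 h limit, with a ratio of 0.502, and Chst12 is scale-robust.

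Further members named by the same rule have less common ground. Psen2, a catalytic subunit of gamma-secretase, stood at 135, 33.1, 37.1, 69.5 and 106 FPKM at 0, 4, 8, 12 and 24 h. Sppl2b, an intramembrane protease of a related fold, stood at 10.1, 2.21, 4.29, 7.57 and 9.44 FPKM at 0, 4, 8, 12 and 24 h. Apobec1, the editor of apolipoprotein B messenger RNA, stood at 135, 20.1, 28.8, 50.3 and 157 FPKM at 0, 4, 8, 12 and 24 h. Psen2 and Sppl2b ended below 0 h and Apobec1 ended above it after a 12 h ratio of 0.374. Casp9, the initiator caspase of the mitochondrial death pathway, stood at 12.9, 1.54, 5.56, 6.81 and 7.82 FPKM at 0, 4, 8, 12 and 24 h. Panx1, a channel that releases ATP, stood at 17.8, 4.13, 3.76, 8.46 and 31.7 FPKM at 0, 4, 8, 12 and 24 h. Stra6l, a membrane receptor for retinol-binding protein, stood at 11.7, 2.72, 5.17, 13.3 and 19.3 FPKM at 0, 4, 8, 12 and 24 h. Panx1 and Stra6l were 1.78-fold and 1.64-fold above 0 h at 24 h, and Panx1 was still below 0.5 of 0 h at 12 h. Casp9 is scale-robust.

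Lhfpl2, a tetraspan membrane protein, stood at 108, 11.8, 67.4, 123 and 80.2 FPKM at 0, 4, 8, 12 and 24 h. Tor4a, of the torsin family, stood at 28.8, 4.00, 21.8, 40.2 and 48.1 FPKM at 0, 4, 8, 12 and 24 h. Tmem104, whose function is little known, stood at 32.7, 1.51, 8.00, 31.7 and 54.8 FPKM at 0, 4, 8, 12 and 24 h. Lhfpl2 peaked at 12 h, and Tor4a and Tmem104 ended 1.67-fold and 1.68-fold above 0 h, all 3 of them scale-robust. Tmem206, the acid-gated chloride channel that RefSeq names Pacc1, stood at 30.5, 3.10, 2.74, 6.69 and 19.9 FPKM at 0, 4, 8, 12 and 24 h. Nt5c, a cytosolic nucleotidase, stood at 57.0, 14.2, 21.8, 26.4 and 31.4 FPKM at 0, 4, 8, 12 and 24 h. Mmgt2, a membrane magnesium transporter, stood at 12.2, 1.20, 2.59, 4.85 and 6.12 FPKM at 0, 4, 8, 12 and 24 h. Tmem206 was lower at 8 h than at 4 h, and the other pair climbed stepwise. Tmem206 and Mmgt2 are scale-robust.

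Gpank1 stood at 12.4, 3.10, 7.41, 8.30 and 10.9 FPKM at 0, 4, 8, 12 and 24 h. It was the member nearest the 4 h limit. The 130 members given no role had a median of 16.8, 2.99, 5.18, 7.65 and 11.7 FPKM at the 5 times. At 12 h 46 of the 130 reached 0.5 of 0 h, against 134 (45.3%) of all 296 members. Roles were assigned after the values had been seen, so the groups describe the set and test nothing.

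Mfsd6, Tmem8 and Epb41l1 were named for their low 12 h over 0 h ratios after their values were seen. Mfsd6 stood at 13.7, 3.33, 0.77, 1.20 and 8.29 FPKM at 0, 4, 8, 12 and 24 h. Tmem8, an enzyme that trims GPI anchors and that RefSeq names Pgap6, stood at 11.6, 2.29, 1.68, 2.16 and 12.4 FPKM at 0, 4, 8, 12 and 24 h. Epb41l1, which ties membrane proteins to the cytoskeleton, stood at 10.7, 2.40, 1.35, 2.20 and 11.3 FPKM at 0, 4, 8, 12 and 24 h. All 3 were lower at 8 h than at 4 h, and Mfsd6 had the lowest 12 h over 0 h ratio of the set, 0.088.

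**Figure D4:**
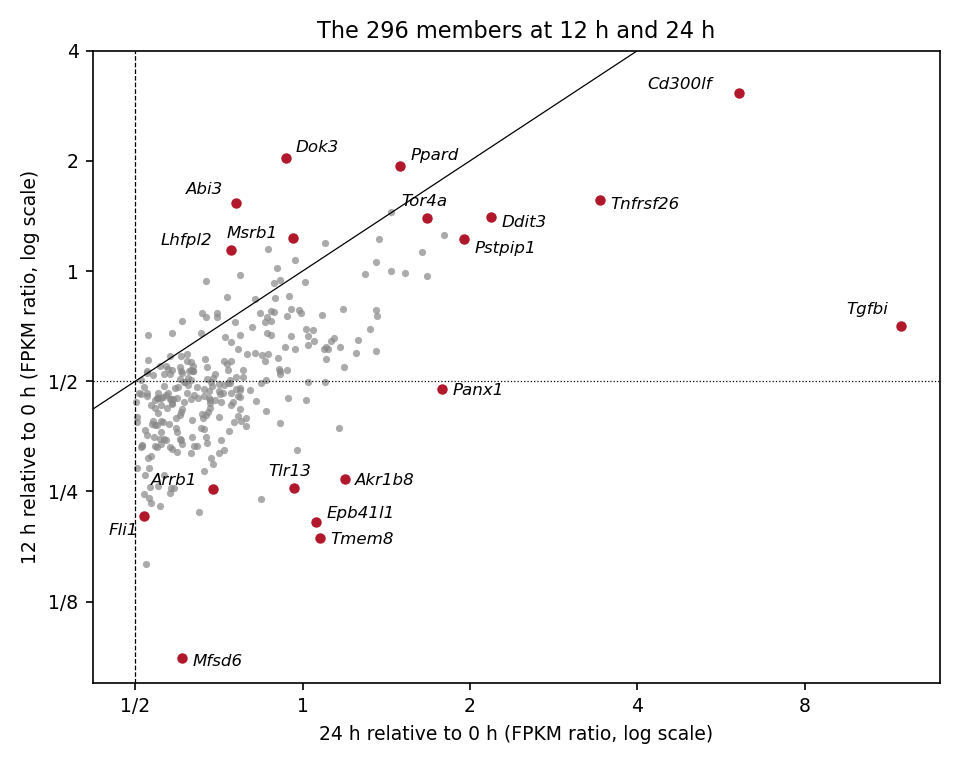
The 12 h over 0 h ratio against the 24 h over 0 h ratio of the 296 members, both on log scales, with the diagonal as a solid line, 0.5 at 12 h dotted and the 24 h limit of 0.5 dashed. Dok3, Abi3, Lhfpl2, Msrb1 and Ppard lie above the diagonal, Tgfbi (0.707 at 12 h and 11.9 at 24 h) and Cd300lf (3.06 and 6.09) at the right below it, and 268 of the 296 members had a higher value at 24 h than at 12 h.

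The limits of the rule cut through a continuum. Just inside the 4 h limit, Gpank1, Nprl2 and Nt5c had ratios of 0.2498, 0.2491 and 0.2489. Just outside it, Surf1, Hmox1 and Mylip had ratios of 0.2501, 0.2503 and 0.2503. Hmox1, haem oxygenase, had 177, 44.2, 369, 1255 and 3228 FPKM at 0, 4, 8, 12 and 24 h, so that it was 18.3-fold above 0 h at 24 h and still outside the set. At the 24 h limit, Cmas, Mmgt2 and Ftl1 lay inside with ratios of 0.502, 0.504 and 0.504, and Mrpl28, Bcas2 and Tspan14 outside with 0.499, 0.499 and 0.498. At the 0 h limit, Hist1h2ao, Tcf3 and Sppl2b lay inside at 10.03, 10.05 and 10.06 FPKM, and Tmx4 and Osbpl2 outside at 9.98 and 9.94 FPKM.

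Gene lists of 22 pathways, drawn up with earlier results of these data known, put the members among their pathways. The counts use the same 4 h and 24 h values as the rule, so they describe it. Of 25 G protein and regulator genes of at least 10 FPKM at 0 h, 7 were lost at 4 h and 4 of them are members (Arrb2, Rgs19, Arrb1 and Grk6). Of 21 G protein-coupled receptors 7 were lost and none regained. Of 33 glycosylation and GPI genes 6 were lost and 4 are members. Of 36 adaptors and tyrosine kinases of immune receptors 7 were lost and 4 are members. Of 31 chromatin modifiers 7 were lost and 4 are members. Their median 4 h ratios were 0.529, 0.436, 0.417, 0.802 and 0.566, against 0.536 over all 5283 genes.

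Lists with 3 members were myeloid transcription factors (9 of 30 lost), cytokine and growth factor receptors (4 of 27), the MAP kinase cascade (6 of 30) and sterol efflux with LXR targets (5 of 18). Lists with 2 members were MiT/TFE factors (6 of 19 lost), mTORC1 restraint (4 of 7), phosphoinositide enzymes (2 of 25), inhibitory receptors (5 of 25), the Toll-like receptor pathway (2 of 24), DNA repair (3 of 15) and peroxisomal genes (6 of 30). Lists with 1 member were death machinery (2 of 18 lost), the circadian clock (3 of 7), small GTPases (5 of 33), TBC proteins (2 of 13) and ciliary genes (1 of 4). Of 15 FOXO and p53 targets 4 were lost and none regained. Against the 13.7% lost and 6.02% lost and regained among all genes, counts this small single out no list.

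Members lay near genes not lost in transcript length, and nearer to genes lost and not regained in gene span. The members' longest annotated transcript had a median of 2659 nt, against 2025 nt for genes lost and not regained and 2714 nt for genes not lost. Members had a median of 8 exons, against 6 and 9, and a gene span of 14796 bases, against 12925 and 19656. Transcript GC content was 53.9% for members, 53.5% for genes lost and not regained and 50.5% for genes not lost. The pentamer ATTTA, the core of AU-rich decay elements, occurred 0.586 times per kb of 3′ UTR in the median member, against 0.653 and 1.18. At least 1 copy was in 55.3% of members' 3′ UTRs, against 57.2% and 65.1%. Both lost sets were thus richer in GC and poorer in ATTTA than genes not lost, and they differed from each other in length and exon number. Length also moves with the 4 h difference over all genes in these libraries, and its part in the result was not tested.

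The non-members whose courses were most like the median member's were Rps19bp1, Eif2b5, Sumf2, Pgrmc2 and Tmem214, with Pearson correlations of log2(FPKM + 1) of 0.998 to 0.9998 over the 5 libraries, given as a description. Sumf2 stood at 11.1, 2.84, 4.76, 6.92 and 8.72 FPKM at 0, 4, 8, 12 and 24 h. Pgrmc2, a haem-binding membrane protein, stood at 17.98, 4.91, 7.98, 11.4 and 14.98 FPKM at 0, 4, 8, 12 and 24 h. None of the 5 was at 0.25 of 0 h or below at 4 h, so the shape of fall and return was also found at shallower depth.

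From the steps between low FPKM values, depth was estimated at 18.8 to 19.7 megareads per library, at which the lowest member at 4 h stood for 8.86 reads and the median member for 164. With 95% Poisson intervals, which cover counting error only, the 8 h value was above the 4 h value for 236 of 295 members, below it for 11, and overlapped it for 48. The 12 h value was above the 4 h value for 285. The 24 h value was above the 0 h value for 32, and the 12 h value above the 24 h value for 13. These interval counts cover members only, with no share over all genes beside them. The members were chosen by their 0, 4 and 24 h values, so the counts are in part built in. All 7 macrophage markers listed reached 10 FPKM, with sums of 2052 to 3054 FPKM per library. Neutrophil markers, of which 4 of 7 listed reached 10 FPKM, summed to 339, 321, 254, 180 and 58.8 FPKM at 0, 4, 8, 12 and 24 h, and dendritic cell markers, 2 of 6, to between 14.8 and 46.2. No marker of T and NK, B, mast, erythroid or stromal cells reached 10 FPKM, with sums of 0.03 to 11.4 FPKM. No marker is a member, and the part of other cells in the members' course was not tested.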

How the data were processed

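RNA sequencing of mouse bone marrow-derived macrophages at 5 times was deposited by the authors as 1 table of FPKM values with 2 decimals, per the file headers. Per the submitters' processing notes the tools were Bowtie2 and RSEM and the build GRCm38, with no version or role given. Which annotation and filters were used is not given in the sources used here. A gene's FPKM falls when other genes take more of a library, and estimated shares of reads are divided among gene copies.

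The members and the gene lists were chosen with earlier results of these data known. Ratios are FPKM over FPKM, and differences are on log2(FPKM + 1), which understates the change of low genes. With 1 library per time no test or p-value was computed. Named members follow a rule: the 10 highest at 0 h, the 10 largest 4 h differences, the 10 largest 24 h ratios, 6 at each end of the 8 h over 0 h and 12 h over 24 h ratios among members of at least 20 FPKM at 0 h, 3 on each side of each limit, and up to 6 per list. In all 84 members meet it, a few of which are not reported here, and others named are marked. In 20 rows the symbol had become a date, none of them a member.

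The length trend was removed as the median difference in 20 bins of transcript length. Lengths came from GENCODE M21 on GRCm38 (99.4% of genes matched), using the longest protein-coding transcript, and promoters from RefSeq on GRCm38.p6. Depth was taken as the step, searched between 5 and 60 megareads, that gave the most whole read numbers among low values (tolerance 0.04 reads, or the 0.005 FPKM of rounding where that is larger). The share of whole values per library ran from 39.2% to 47.1% (70 to 87 values), against 14.9% to 15.4% for a fixed step by chance, and the step was picked for its match. Python 3.11.15, pandas 2.3.3, NumPy 2.4.6, SciPy 1.17.1 and Matplotlib 3.10.9 were used, and 13 alternatives were tried.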

Additional observations from a re-analysis of the deposited data

How the results depend on the processing

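The rule and its scale were varied 13 ways, 8 values were recomputed under each, and of the 104 values 30 stayed and 74 moved. The 2 median log2 differences kept their sign in all 13, and counts and shares have no sign to reverse. Order of values below, where given, is the number of members, those at 0.5 of 0 h or above at 8 h and at 12 h, the median log2 difference from 0 h at 8 h and at 12 h, the share of eligible genes lost, and the share of lost genes regained. As reported these are 296, 32, 134, -1.52, -0.98, 13.7% and 44.0%, and the share of genes lost and not regained that reached 0.5 of 0 h at 12 h is 2.34%.

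With libraries centred on the median gene there were 109 members, 92 of them shared, of which 15 and 64 reached 0.5 at 8 and 12 h. Their 12 h median was -0.77, 5.94% of genes were lost and 38.2% of those regained, and 5.00% of genes lost and not regained reached 0.5 at 12 h. With the length trend removed there were 105 members, 82 shared, with 18 and 68 at 0.5, a 12 h median of -0.74, 5.43% lost and 39.2% regained. With FPKM rescaled to a fixed sum per library (TPM), where 10 units is a lower bar than 10 FPKM, 11.6% were lost and 50.5% regained, and 200 of 387 members were shared. A pseudocount of 1 gave 19 members at 0.5 at 8 h, medians of -1.69 and -1.06, and 10.4% lost. A pseudocount of 5 gave 62 members with 2 and 34 at 0.5, an 8 h median of -1.75, 3.63% lost and 35.9% regained.

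A 0 h minimum of 5 FPKM gave 506 members, 59 and 247 at 0.5, medians of -1.42 and -0.90, 15.5% lost and 48.8% regained. A minimum of 20 FPKM gave 136 members, 14 and 67 at 0.5, an 8 h median of -1.68, 12.4% lost and 36.5% regained. With no minimum there were 1388 members, 290 and 793 at 0.5, medians of -0.85 and -0.47, 20.7% lost and 56.2% regained, and 7.36% of genes lost and not regained reached 0.5 at 12 h. A 4 h limit of 0.333 gave 588 members, 128 and 313 at 0.5, medians of -1.31 and -0.90, 24.0% lost and 49.4% regained. A 4 h limit of 0.125 gave 56 members, 3 and 20 at 0.5, medians of -2.02 and -1.08, 4.32% lost and 27.2% regained, and 0.654% of genes lost and not regained reached 0.5 at 12 h. A 24 h limit of 0.75 gave 113 members, 84 at 0.5 at 12 h, medians of -1.37 and -0.58, 16.6% regained, and 10.4% of genes lost and not regained at 0.5 at 12 h. A 24 h limit of 1 gave 47 members, 14 and 39 at 0.5, medians of -1.27 and -0.49, 7.06% regained, and 16.4% of genes lost and not regained at 0.5 at 12 h. Keeping the named families moved none of the 8 values. Changed limits admit or drop genes by construction, and the cause of the shifts under the other scales was not tested.

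Each time is 1 library, and no spread between cultures is known. No paired analysis was possible because no result comes from a test and each group has 1 sample. Depth was estimated from the values, and at 4 h it leaves the lowest members with few reads.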

Other observations

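The 22 genes that met all 3 limits and were set aside by name took a similar course, with a median ratio to 0 h of 0.171, 0.324, 0.468 and 0.666 at 4, 8, 12 and 24 h. Of them 3 reached 0.5 of 0 h at 8 h and 10 at 12 h, against 10.8% and 45.3% of the 296 members. The 22 genes hold 8 transporters of the Slc family. Slc48a1, which carries haem out of the lysosome, stood at 158, 35.7, 32.8, 83.7 and 284 FPKM at 0, 4, 8, 12 and 24 h. Slc8b1, the mitochondrial sodium and calcium exchanger, stood at 44.9, 6.69, 31.9, 45.0 and 69.1 FPKM. Slc37a2, a sugar phosphate transporter of macrophages, stood at 82.8, 18.2, 5.34, 8.28 and 41.9 FPKM. Slc8b1 was back at 0 h by 12 h, while Slc37a2 was lowest at 8 h.

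Rab7b, a GTPase that slows Toll-like receptor signalling from endosomes, stood at 97.9, 1.65, 7.81, 27.9 and 64.7 FPKM at 0, 4, 8, 12 and 24 h. Snx24, a sorting nexin, stood at 19.1, 0.14, 1.09, 2.39 and 9.65 FPKM. Their 4 h ratios of 0.017 and 0.007 are below that of every one of the 296 members, whose lowest is 0.037. Trim8, a ubiquitin ligase, stood at 40.2, 6.76, 15.6, 23.2 and 47.4 FPKM and was one of 4 of these genes at or above 0 h at 24 h. These genes were named after their values were seen.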
